A study of Mus musculus with 18 samples.

Results

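The genes described here are 10 mouse genes of mast cells: the granule proteases Cma1, Cpa3, Mcpt4, Tpsb2 and Tpsab1, the receptors Kit, Ms4a2 and Fcer1a, the histamine-forming enzyme gene Hdc and the transcription factor gene Gata2. They were named one by one from the 49585 gene identifiers of the count table, and all 10 were found there by symbol. The list was chosen on measured values, the NK-against-Ctrl expression of these same lesions, so every difference between the treatment groups given below is a description and supports nothing. All 10 genes had counts in at least 2 of the 18 lesions, and 4 of them, Cma1, Kit, Hdc and Gata2, passed the filter on low counts that 16917 genes passed.

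The lesions were lung metastases of AT3 mouse breast cancer cells carrying GFP and mCherry, which had spread on their own from tumours grown in the mammary fat pad. In the NK transferred group the hosts had been given 60000 in vitro activated murine NK cells into a vein on day 11, and 7 lesions of 2 mice were sequenced, lesions 1 to 3 of mouse NK1 and lesions 1 to 4 of mouse NK2. In the Ctrl group the hosts had been given PBS, and 11 lesions of 3 mice were sequenced, 5 of mouse KO1, 4 of mouse KO2 and 2 of mouse KO3. A lesion is named below by its mouse and its lesion number, as in NK1-2, and the part of each title before the lesion number was taken as the mouse. All hosts, Ctrl included, lacked a Rag gene, needed for T and B cells, and Il2rg, the common cytokine receptor chain without which lymphoid cells including NK cells fail to develop. The strain label gives Rag2-/-IL2rg-/- and the growth protocol gives Rag1-/-IL2rg-/-, and the age and the genetic background of the mice were not given. Fluorescent lesions were cut from frozen lung sections by laser capture, and the single-cell RNA kit used for the libraries was given 2 ng of RNA per lesion. A lesion library therefore holds tumour cells and any host cells inside the captured outline, and no sort removed any of them.

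Mast cells are long-lived tissue cells that develop from blood-borne progenitors under the receptor tyrosine kinase KIT. Their granules hold histamine, heparin-bound proteases and other mediators, which are set free when antigen joins IgE on the high-affinity receptor. In mice, mast cells of connective tissue, which in the lung lie mainly around large airways and vessels and in the pleura, express the chymases Cma1 and Mcpt4, the carboxypeptidase Cpa3 and tryptases, whereas mast cells of mucosal surfaces express Mcpt1 and Mcpt2.

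The start regions of the proteases are shown because GATA factors such as GATA2 are known regulators of mast cell genes and because counts of these genes lay in the same lesions. The RefSeq promoter table of build GRCm38.p6, with 250 bases before and 50 after a gene's start, held 8 of the 10 genes and had no entry for Tpsb2 and Tpsab1. Capitals mark GATAA on either strand, so that TTATC stands for a match on the opposite strand, and each sequence is written 5′ to 3′ along the gene. All 3 genes lie on the minus strand, Cma1 at chr14:55944626-55944925, Cpa3 at chr3:20242132-20242431 and Mcpt4 at chr14:56062261-56062560.
Cma1: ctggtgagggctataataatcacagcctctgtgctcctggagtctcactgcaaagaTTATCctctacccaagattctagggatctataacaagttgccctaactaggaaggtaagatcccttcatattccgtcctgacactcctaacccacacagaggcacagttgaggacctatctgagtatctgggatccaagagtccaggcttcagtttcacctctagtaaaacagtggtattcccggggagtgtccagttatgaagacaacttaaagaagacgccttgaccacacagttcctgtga
Cpa3: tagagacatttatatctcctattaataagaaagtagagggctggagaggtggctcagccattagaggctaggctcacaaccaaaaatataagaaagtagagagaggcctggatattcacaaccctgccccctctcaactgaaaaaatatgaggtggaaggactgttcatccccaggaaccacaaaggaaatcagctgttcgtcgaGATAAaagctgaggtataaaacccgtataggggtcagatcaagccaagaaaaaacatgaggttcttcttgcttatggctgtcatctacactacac
Mcpt4: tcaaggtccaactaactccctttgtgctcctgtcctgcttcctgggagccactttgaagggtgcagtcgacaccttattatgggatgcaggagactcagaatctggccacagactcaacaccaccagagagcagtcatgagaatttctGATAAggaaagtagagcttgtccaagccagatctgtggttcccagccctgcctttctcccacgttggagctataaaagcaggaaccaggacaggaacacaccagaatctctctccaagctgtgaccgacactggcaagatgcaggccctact
The match lay 194 bases before the start in Cma1, 45 before it in Cpa3 and 102 before it in Mcpt4. In Ms4a2 the window held 3 matches and in Fcer1a it held 1, whereas the windows of Kit, Hdc and Gata2 held none. Of the 32851 windows in the table, 25.4% held GATAA, so a match in 1 window is common. The E-box CANNTG, searched likewise and held by 72.3% of windows, was found in Cma1 and Cpa3 and not in Mcpt4, and its form CACGTG, a subset of it that 7.15% of windows held, was in none of the members. TATAAA, which 13.6% of windows held, lay 31 bases before the start of Cpa3 and 32 before that of Mcpt4. A match is a stretch of letters and no measured binding site.

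Library depth ran from 2964241 to 11798853 estimated counts in NK transferred lesions and from 5690448 to 9816212 in Ctrl lesions. The mitochondrial rRNA mt-Rnr2 took 13.7% to 65.3% of the counts in NK transferred lesions, with 47.6%, 65.3% and 52.0% in NK1-1, NK1-2 and NK1-3, against 12.1% to 68.7% in Ctrl lesions. Values below are CPM, estimated counts scaled to a lesion's library size after TMM scaling, and 3 counts, the detection floor used here, were worth 0.169 to 2.41 CPM. The floor was highest in NK1-3, so that a count of 0 says least there. Krt18, a keratin of epithelial and tumour cells, had counts in all 18 lesions, whereas the epithelial cadherin gene Cdh1 had 1 count in NK1-2. NK cell genes summed to 1.61 to 43.0 CPM in NK transferred lesions and to 0 to 9.04 CPM in Ctrl lesions, so their ranges overlapped. The 9.04 CPM of KO3-2 was Prf1 alone. Of the 6 NK cell genes tested, all 6 had positive log2 fold changes, with a median of 3.69 and 0 called by edgeR. The leading NK cell genes, the granzymes Gzma and Gzmb, had 0 counts in the NK transferred lesion NK1-3, against 23 and 21 in the Ctrl lesion KO1-1 and 38 and 41 in KO1-3.

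Granule protease transcripts were concentrated in 2 lesions of 1 mouse given NK cells, NK1-1 and NK1-2. The 5 proteases together had 281 counts in NK1-1, or 44.9 CPM with an exact 95% Poisson interval of 39.8 to 50.4, and 352 counts in NK1-2, or 147 CPM with an interval of 132 to 163. Among the other 16 lesions the sum was highest in NK2-4, at 29 counts and 1.63 CPM, and no other lesion had more than 2 counts. All 10 members had counts in NK1-1 and in NK1-2, against 2 to 6 of the 10 in each of the other 16 lesions. In NK1-2, however, Tpsab1, Ms4a2 and Fcer1a had 1 count each, below that lesion's floor of 1.25 CPM. The third lesion of the same mouse, NK1-3, had 0 counts of all 5, which allows up to 2.96 CPM. The 11 Ctrl lesions together had 3 counts, all of Cpa3. These intervals cover counting error only, since the reads carry no molecular identifiers in the sources used here and library amplification copies molecules. In captured tissue, fewer mast cells and less of a transcript per mast cell cannot be told apart.

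**Figure D1:**
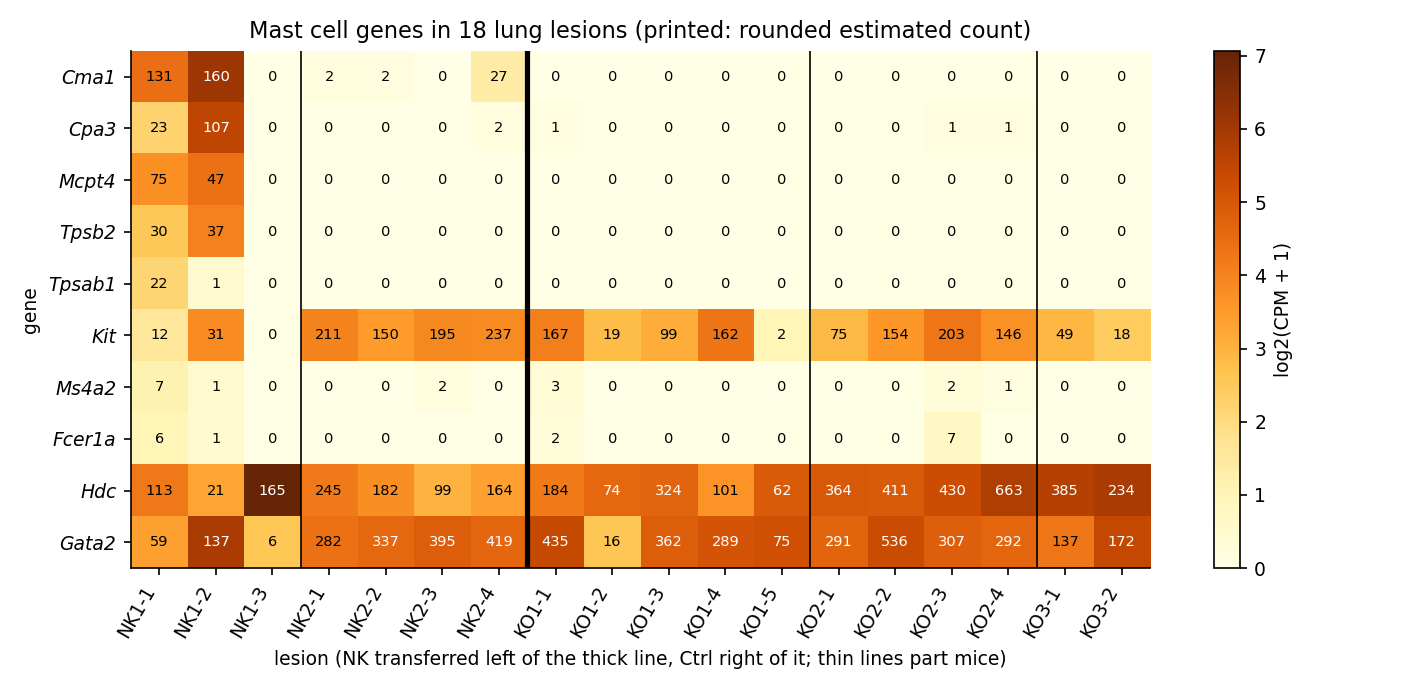
Each cell gives log2(CPM + 1) by colour and the rounded estimated count in print for 1 gene (rows) in 1 lesion (columns), with NK transferred lesions left of the thick line and Ctrl lesions right of it. The protease rows are dark in NK1-1 and NK1-2 and pale elsewhere, whereas Kit, Hdc and Gata2 are coloured across both groups.

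Cma1, a chymase-family protease of connective tissue mast cells with elastase-like activity in mice (chr14:55941451-55944675, minus strand, mm10), was the most widely detected protease in NK transferred lesions. Its lowest, median and highest values were 0, 0.141 and 66.9 CPM in the 7 NK transferred lesions, against 0 in all 11 Ctrl lesions. The counts were 131 in NK1-1, 160 in NK1-2, 27 in NK2-4 and 2 each in NK2-1 and NK2-2. It thus had counts in 5 of 7 lesions and in both mice. The values of NK2-1, which is the group median, and of NK2-2 were below their floors of 0.211 and 0.205 CPM. In mouse NK2 only NK2-4 was above the floor. NK1-1 and NK1-2 held 90.4% of all its counts. Summed over each group, 322 counts in NK transferred lesions against 0 in Ctrl put the NK transferred level at least 149-fold higher, taking 3 counts over the whole Ctrl group as the floor. Mouse NK2 alone, with 31 counts, was at least 16.7-fold above that Ctrl floor.

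Cpa3 encodes carboxypeptidase A3, a metalloprotease that mast cell granules hold in large amount. It ran from 0 over a median of 0 to 44.7 CPM in NK transferred lesions, and from 0 over a median of 0 to 0.0955 CPM in Ctrl lesions. The counts were 23 in NK1-1, 107 in NK1-2 and 2 in NK2-4, against 1 each in KO1-1, KO2-3 and KO2-4. The ratio of 132 to 3 counts, scaled for library size, was 61.2 with a counting interval of 20.5 to 300.4. In mouse NK2 alone the ratio to Ctrl was 1.08, with an interval of 0.09 to 9.41, so Cpa3 was not distinguishable there from its Ctrl level.

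Mcpt4, the main chymotrypsin-like chymase of connective tissue mast cells in mice, and the tryptase genes Tpsb2 and Tpsab1 were detected in NK1-1 and NK1-2 and in none of the other 16 lesions. Mcpt4 had 75 counts in NK1-1 and 47 in NK1-2, which were 12 and 19.6 CPM. Tpsb2 had 30 and 37 counts in the same lesions, or 4.79 and 15.5 CPM. Tpsab1 had 22 counts in NK1-1 and 1 in NK1-2, or 3.51 and 0.418 CPM, and that single count is below the floor. For the group as a whole, NK transferred lesions were at least 56.5-fold higher than Ctrl for Mcpt4, at least 31.0-fold for Tpsb2 and at least 10.7-fold for Tpsab1. Without NK1-1 and NK1-2 the NK transferred group had 0 counts of all 3, and these bounds are therefore values of those 2 lesions.

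The make-up of the protease counts differed between the lesions that held them. Cma1 took 46.6% of the 5 proteases' counts in NK1-1, with an exact Clopper-Pearson 95% interval of 40.7% to 52.6%, and 45.5% in NK1-2, with 40.2% to 50.8%. Tpsb2 was also alike, at 10.7% in NK1-1 and 10.5% in NK1-2. The share of Cpa3 was 8.19% (5.26% to 12%) in NK1-1 and 30.4% (25.6% to 35.5%) in NK1-2. The order was opposite for Mcpt4, at 26.7% (21.6% to 32.3%) in NK1-1 and 13.4% (9.98% to 17.4%) in NK1-2. Tpsab1 took 7.83% (4.97% to 11.6%) in NK1-1 and 0.284% (0.00719% to 1.57%) in NK1-2. For these last 3 genes the counting intervals of the 2 lesions did not overlap. In NK2-4, 27 of 29 counts were of Cma1, a share of 93.1% (77.2% to 99.2%), and Mcpt4, Tpsb2 and Tpsab1 each had an upper limit of 11.9%. The intervals take counts as independent and leave out the spread between libraries, which 1 library per lesion cannot show.

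**Figure D2:**
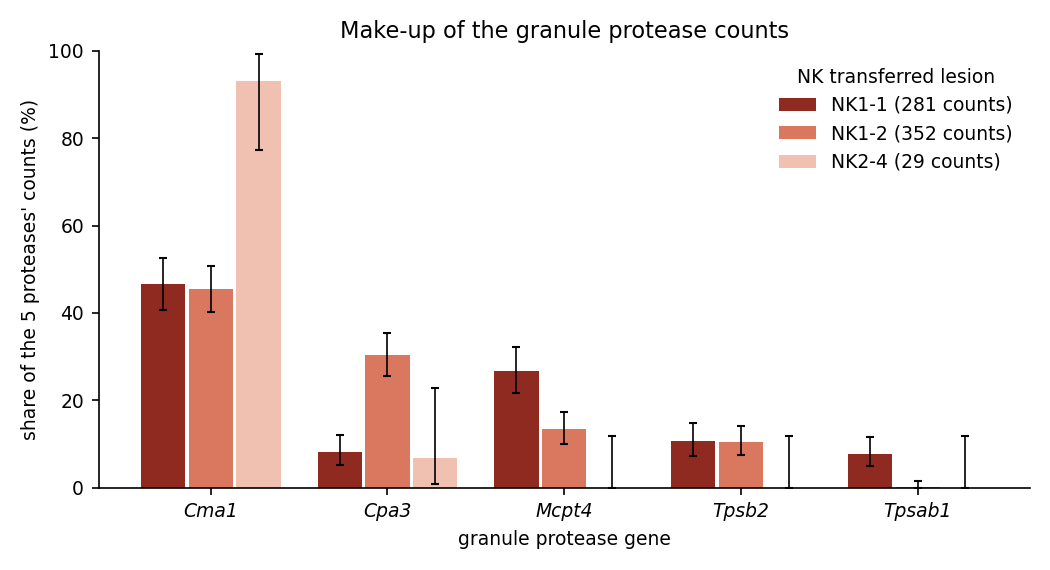
Bars give each gene's share, in percent, of the summed counts of the 5 proteases in 3 NK transferred lesions, with exact 95% binomial intervals that cover counting error only. Cma1 and Tpsb2 have like shares in NK1-1 and NK1-2, Cpa3 is higher in NK1-2 (30.4%) than in NK1-1 (8.19%), and NK2-4 is nearly all Cma1.

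The tryptase genes are a close pair, and how reads were split between them bears on these shares. They lie near each other on chromosome 17, Tpsb2 at chr17:25366305-25369098 on the plus strand and Tpsab1 at chr17:25343245-25345562 on the minus strand. Their coding sequences were identical at 75.0% of aligned bases, the highest identity of any pair of the 5 proteases. The 120 aligned coding bases around their longest identical run are shown from base 159 of the Tpsb2 coding sequence and from base 261 of that of Tpsab1 (mm10), with capitals at the 28 bases that differ.
Tpsb2: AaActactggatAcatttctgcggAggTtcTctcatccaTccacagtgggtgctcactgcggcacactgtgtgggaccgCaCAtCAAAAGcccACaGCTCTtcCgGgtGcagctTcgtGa
Tpsab1: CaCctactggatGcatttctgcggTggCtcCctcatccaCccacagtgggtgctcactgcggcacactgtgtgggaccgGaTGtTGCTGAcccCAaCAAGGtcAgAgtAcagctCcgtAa
That run was 39 bases long and codes for the residues around the active-site histidine. No stretch of 50 bases was shared between these transcripts, or between either of them and any other annotated gene. The same held for Cpa3, Kit, Ms4a2, Fcer1a, Hdc and Gata2. Of the 50-base stretches of Cma1, 5.46% recurred in another gene, most often Gm48934, and of those of Mcpt4, 5.48%, most often Cma2, which had 0 counts in all lesions. The read length was not given in the sources used here.

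The high-affinity IgE receptor genes were near the detection floor everywhere. Ms4a2, its beta chain, had 7 counts in NK1-1, 1 in NK1-2 and 2 in NK2-3, against 3 in KO1-1, 2 in KO2-3 and 1 in KO2-4. Fcer1a, the alpha chain that binds IgE, had 6 counts in NK1-1 and 1 in NK1-2, against 2 in KO1-1 and 7 in KO2-3. NK1-1 and NK1-2 together had 18.5 times the Ms4a2 level of the other 16 lesions (counting interval 6.06 to 56.6) and 14.4 times the Fcer1a level (4.56 to 43.5). These 2 lesions were singled out on mast cell genes of the same data, so the ratios are a description. They rest mainly on NK1-1, since the single counts of NK1-2 were below its floor of 1.25 CPM. Fcer1a in NK1-2, at 0.418 CPM, was under the 0.624 CPM of the Ctrl lesion KO2-3. Between the treatment groups, the ratio of NK transferred to Ctrl lesions was 2.32 for Ms4a2 (0.763 to 7.76) and 1.08 for Fcer1a (0.342 to 3.26), and both intervals include equal levels. Basophils carry the same receptor. The basophil protease gene Mcpt8 and Cd200r3, a receptor gene placed in the basophil list here, had 0 and 2 counts in NK1-1. Both had 0 in NK1-2, against 22 of each in KO2-3, the Ctrl lesion with 7 counts of Fcer1a and 1 protease count. Of the other basophil genes, Il3ra was at 0.479 CPM in NK1-1 and 2.51 CPM in NK1-2, against 1.25 CPM in KO2-3, and Prss34, Il4 and Il13 had 0 counts in all 3 lesions. Mcpt8, Prss34, Il4 and Il13 were named after their values were seen.

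Kit, the receptor for stem cell factor, which endothelial and progenitor cells also express, did not follow the proteases. The lowest, median and highest values were 0, 13 and 14.9 CPM in NK transferred lesions, against 0.958, 7.62 and 18.7 CPM in Ctrl lesions, and the groups overlapped. Protease-rich NK1-1 had 1.92 CPM from 12 counts and NK1-2 had 13 CPM from 31 counts, both inside the range of the other 16 lesions. With 0 counts, NK1-3 was the only lesion without Kit, at a floor of 2.41 CPM. Per mouse, Kit averaged 9.12 ± 7.11 CPM in NK transferred mice (SD, n = 2) and 10.3 ± 3.9 CPM in Ctrl mice (SD, n = 3).

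Gata2, a transcription factor needed for mast cell and blood progenitor development and also expressed in endothelium, was found in all 18 lesions. Values ran from 4.82 over a median of 23.1 to 57.3 CPM in NK transferred lesions and from 5 over 27.9 to 42.0 CPM in Ctrl lesions. NK1-1 was among the lowest at 9.42 CPM and NK1-2 was the highest at 57.3 CPM. The rank of NK1-2 depends on the scaling: on raw library totals it stood at 28.3 CPM, below 11 other lesions, all 4 of NK2 among them, which had at least 31.3 CPM. Per mouse Gata2 was 19.2 and 25.6 CPM in NK1 and NK2, against 32.8, 31.3 and 26.9 CPM in KO1, KO2 and KO3, without overlap. Of all genes tested, 6.86% likewise had both NK transferred mice below all 3 Ctrl mice.

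Hdc encodes histidine decarboxylase, which makes histamine in mast cells and basophils and is also expressed by neutrophils and their precursors in mice. It ran from 6.95 over a median of 12.5 to 133 CPM in NK transferred lesions and from 11.6 over 29.7 to 57.2 CPM in Ctrl lesions. The top value was NK1-3, which had no protease count, with 165 counts. On raw library totals NK1-3 stood at 55.7 CPM, below KO2-4 at 67.8 CPM. NK1-1 had 18 CPM and NK1-2 8.78 CPM. All 6 lesions of KO2 and KO3 were between 29.5 and 57.2 CPM, against 11.6 to 29.7 CPM in KO1 lesions, and the mouse values of 28.5 and 12.3 CPM in NK1 and NK2 overlapped the Ctrl values of 20.7, 41.0 and 53.9 CPM.

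**Figure D3:**
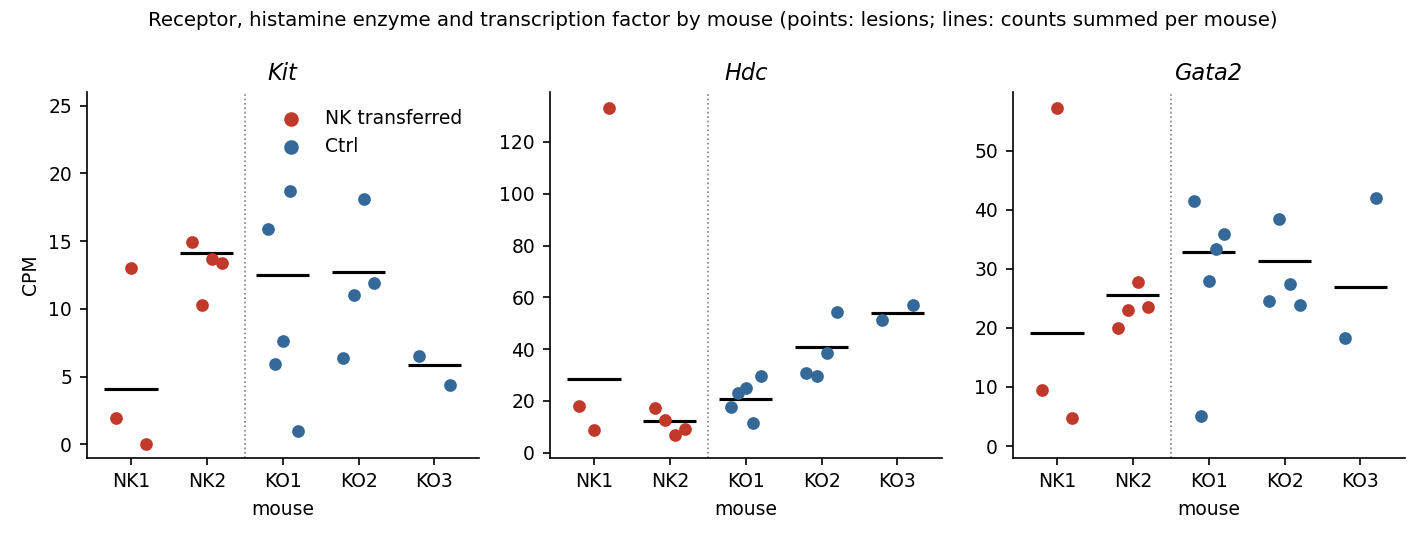
Points give the CPM of Kit, Hdc and Gata2 in single lesions by mouse, NK transferred mice left of the dotted line and Ctrl mice right of it, and black lines give the CPM of counts summed per mouse. NK2 lesions lie close together for each gene, whereas NK1 lesions spread from 8.78 to 133 CPM for Hdc and from 4.82 to 57.3 CPM for Gata2.

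Counts summed per mouse were compared between NK transferred and Ctrl mice with edgeR's quasi-likelihood test over all 16917 genes, as a description for the members. Of the 4 members kept by the filter, 0 reached an adjusted p of 0.05, and the share of all genes that did was 0%. At an unadjusted p of 0.05 there were 426 genes. The log2 fold changes were 11.81 ± 2.48 (SE) for Cma1, a fitted value against Ctrl counts of 0 that depends on the prior count, -0.17 ± 0.66 for Kit, -0.92 ± 0.56 for Hdc and -0.44 ± 0.38 for Gata2. Their median was -0.30, which is the same with Cma1 at its bound, beside -0.03 over all genes tested. Both NK transferred mice lay above all 3 Ctrl mice for Cma1, as they did for 7.94% of all genes tested, and below all of them for Gata2, as for 6.86%. When low counts were not filtered, edgeR called Cma1, Cpa3, Mcpt4 and Tpsb2 higher, in a fit that called 0.535% of 26158 genes higher, and did not call Tpsab1 at an adjusted p of 0.0668. DESeq2 called Cpa3 alone among the 10, at an adjusted p of 0.0226, in a fit that called 0.151% of 17928 genes higher. The members were chosen on this contrast, so nothing is read from these shares.

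Leaving out lesions moved these values. Without mouse NK1 the fitted Cma1 change was 7.38, and without NK2-4, or without both NK1-1 and NK1-2, Cma1 no longer passed the filter. The Kit change was 0.45 without mouse NK1, 0.13 without NK1-1 and -1.34 without mouse NK2, so its direction rested on the lesions of NK1. Gata2 stood at 0.075 without NK1-1 and at -0.84 without NK1-2. Hdc stood at -1.64 without mouse NK1, at -1.47 without NK1-3 and at 0.76 without both NK1-1 and NK1-2. With mouse number as a replicate block, Cma1 had a log2 fold change of 11.52 and an edgeR adjusted p of 0.0133, in a fit that called 0.0355% of genes higher. The mouse numbers are only names and KO3 has no NK transferred partner, so this block has no stated basis.

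Further mast cell genes were sparse, and several but not all lay in the same lesions. Of 14 other mast cell genes, 5 had 0 counts in all 18 lesions: the mucosal mast cell proteases Mcpt1 and Mcpt2, and Mcpt9, Cma2 and Tpsg1. Mrgprb1, of the receptor family that senses basic secretagogues, had 21 counts in NK1-1 and 0 elsewhere, and Mrgprb2, the receptor of connective tissue mast cells for such compounds, had 4 in NK1-1 and 3 in NK1-2. Rgs13 had 10 counts, all in NK1-1, and Tph1, the first enzyme of serotonin synthesis, had 6, all in NK1-2. The IL-9 receptor gene Il9r had 7 counts in NK1-1 and 1 in NK2-3, against 2 in KO1-3. Gata1, a transcription factor of mast cells and of red blood cell precursors, lay elsewhere, with 0 counts in NK1-1 and NK1-2 and 2 in NK2-2, against 10 in KO2-1, 7 in KO3-1, 4 in KO2-3 and 1 in KO2-2, and a log2 fold change of -3.34 with an edgeR adjusted p of 0.9998. Mrgprb2, Rgs13, Tph1, Il9r and Gata1 were named after their values were seen. The 3 most abundant genes of this list are not restricted to mast cells: the vesicular monoamine transporter gene Slc18a2 had a log2 fold change of 0.73 ± 0.50 (SE), the IL-33 receptor gene Il1rl1 0.54 ± 0.67 and the adenosine receptor gene Adora3 1.42 ± 1.34. By lesion, Slc18a2 was highest in NK1-1 at 99.6 CPM, with 42.2 CPM in NK1-2 and 49.7 CPM in KO1-2, the next highest. Adora3 was highest in NK1-2 at 7.94 CPM, with 4.69 CPM in KO1-2, the next highest, and 0.319 CPM in NK1-1. Il1rl1, at 7.19 CPM in NK1-1 and 20.5 CPM in NK1-2, was below KO1-2 in both. Of the 4 genes tested, 3 had positive and 1 negative values, with a median of 0.63 that became -0.064 without NK1-1 and NK1-2, and 0 were called by edgeR.

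The 9 genes of the granule matrix and of lipid mediator synthesis and the 13 genes of KIT and IgE receptor signalling were all tested, with 0 called in either list by edgeR. The first list had 4 positive and 5 negative log2 fold changes and a median of -0.14, with -0.17 ± 0.66 for Srgn, the proteoglycan core that packs granule proteases, and 0.08 ± 0.46 for the granule membrane protein gene Cd63. Ptgs1, a prostaglandin-forming enzyme gene, stood at -0.14 ± 0.47 and Alox5ap, needed for leukotriene synthesis, at -1.01 ± 0.75. The signalling list had 3 positive and 10 negative values and a median of -0.28. Its most abundant genes were Fcer1g, the signalling chain shared by several Fc receptors, at -1.28 ± 0.67, the kinase genes Lyn at -0.47 ± 0.46 and Fyn at -0.56 ± 0.49, and Plcg1 at -0.05 ± 0.38. Many leukocytes express these genes: summed levels in NK1-1 and NK1-2 were 244 and 307 CPM for signalling, within the 243 to 837 CPM of the other 16 lesions.

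NK1-1 and NK1-2 also differed from the other 16 lesions in genes of other cell types. Adventitial fibroblast genes, 8 of 8 detected in each, summed to 8350 CPM in NK1-1 and 3020 CPM in NK1-2, against 149 to 1300 CPM in the other 16 lesions, led by the matrix genes Col3a1 (43841 and 4498 counts) and Dcn (2272 and 846 counts). Col3a1 alone gave 7000 and 1880 of those CPM. Lum, Dcn, Dpt and Col3a1 were above all other 16 lesions in both, whereas Col1a1, at 10.9 and 32.2 CPM, lay within their range and Pi16, at 4.47 and 0.836 CPM, was within it or below it. Endothelial genes were low in all 3 lesions of mouse NK1, NK1-3 without protease counts included. Their mean log2(CPM + 1) was 1.62 in NK1-1, 1.96 in NK1-2 and 1.89 in NK1-3, against 3.10 to 4.80 in the other 15 lesions, with 45, 11 and 1 counts of Cdh5. The summed level of NK1-3, 354 CPM, was the highest of all lesions because 346 CPM of it were Kdr, which had 29 and 20 counts in NK1-1 and NK1-2. Summed alveolar epithelial genes were lower too, at 221 and 368 CPM against 658 to 3530 CPM, with Sftpc at 328 and 196 counts. Sftpb had 41 and 265 counts. Scaled for library size, its NK1-2 level was above those of KO1-4 and of all KO2 lesions, so it was not lower there. Sftpd and Hopx, scaled likewise, lay within the range of the other lesions in both, above KO1-4 and KO1-3 respectively. The part of these differences in the protease values was not tested.

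Other lists set these lesions apart from each other. Adipocyte genes reached 765 CPM in NK1-1, led by Retn and Cidec with 1545 and 1517 counts, against 0.836 CPM in NK1-2 and at most 6.42 CPM in the other 16 lesions. Cardiac muscle genes were at 274 CPM in NK1-1, led by Myl7 and Ttn with 548 and 296 counts, and at 8.36 CPM in NK1-2, against at most 27.2 CPM elsewhere. Mesothelial genes, led by Upk3b and Upk1b, were at 40.2 CPM in NK1-1 and 168 CPM in NK1-2, and at 85.1 to 185 CPM in the 4 KO2 lesions, which held at most 1 protease count each. Airway genes, led by Scgb1a1 and Scgb3a2, were at 3870 CPM in NK1-1 and 8.78 CPM in NK1-2, and highest at 27500 CPM in NK1-3, which had 0 protease counts. Smooth muscle genes, led by Acta2 and Tagln, were at 125 and 12.5 CPM against 9.77 to 95 CPM elsewhere. Macrophage genes, led by C1qa and Csf1r, were at 341 and 212 CPM in NK1-1 and NK1-2, within the 104 to 352 CPM of the others. Eosinophil genes, led by Ear2 and Siglecf, were at 1.28 and 2.93 CPM against 0 to 20.3 CPM. Basophil genes, led by Il3ra and Cd200r3, were at 0.798 and 2.51 CPM against 0.351 to 16.3 CPM. NK cell genes were at 43.0 and 8.36 CPM against 0 to 29.2 CPM.

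**Figure D4:**
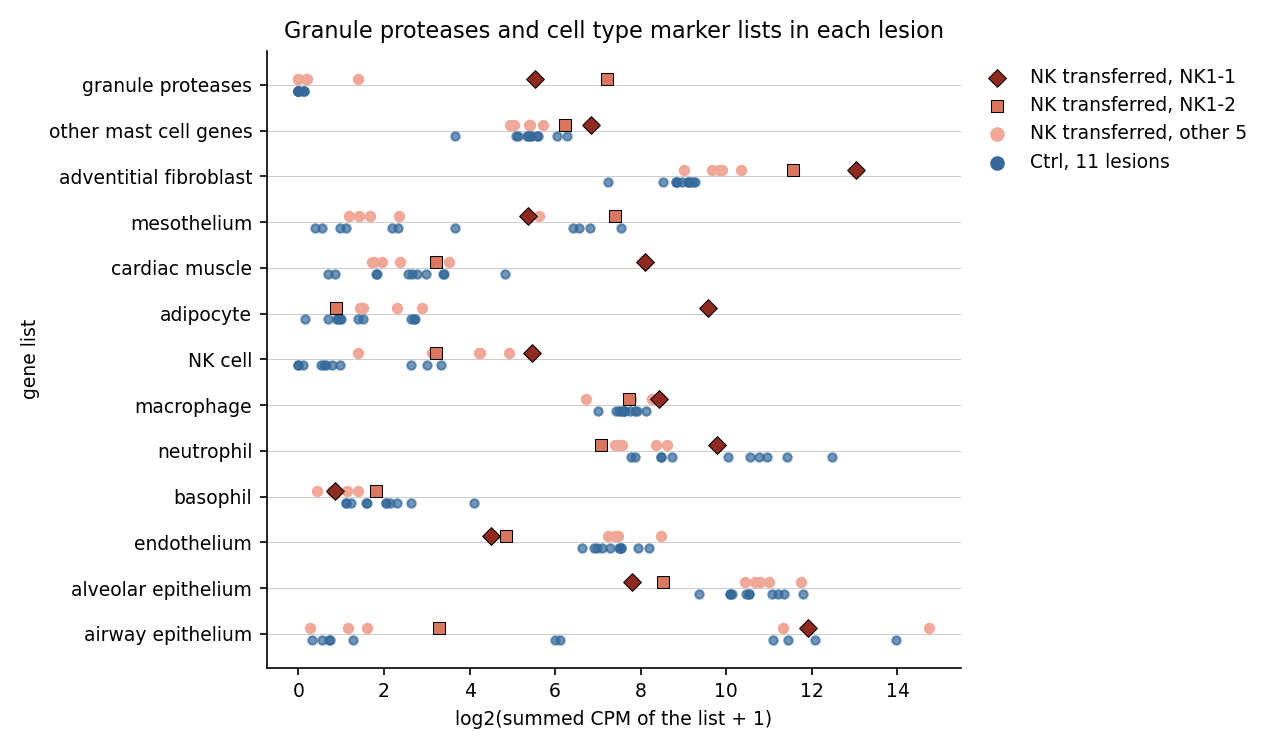
Each point is 1 lesion's log2(summed CPM + 1) for 1 gene list, with NK transferred lesions above and Ctrl lesions below each line. NK1-1 and NK1-2 stand to the right of all other lesions for granule proteases and adventitial fibroblast genes and to the left for alveolar genes. They stand to the left for summed endothelial genes too, where NK1-3 lies at the right through Kdr alone, and the 2 lesions part from each other for adipocyte, cardiac muscle and airway genes.

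Across the 18 lesions, likeness was measured by Spearman's rho and Pearson's r of log2(CPM + 1), as a description, since lesions of a mouse share a host and lesions differ in depth. Kit had a rho of 0.571 and an r of 0.63 with the endothelial list, and a higher r with the signalling list, at 0.699, with granule matrix and lipid mediator genes, at 0.66, and with eosinophil genes, at 0.647. Gata2 had a rho of 0.323 and an r of 0.374 with the endothelial list, and the r was 0.145 without NK1-3 and 0.645 without NK1-2. Its r was higher, though its rho was lower, with granule matrix and lipid mediator (0.518), signalling (0.487) and macrophage genes (0.423). With the epithelial list of Krt8, Krt18, Epcam and Cdh1 the r of Gata2 was -0.708. Hdc had a rho of 0.486 with basophil genes, and of -0.831 with adventitial fibroblast, -0.594 with NK cell and -0.571 with other mast cell genes. With the neutrophil list Hdc had a rho of 0.529 and an r of 0.478. These were 0.777 and 0.808 without NK1-3, and 0.449 and 0.412 without NK1-2. Over all lesions that list was led by S100a9 and S100a8. Its sum was 134 to 875 CPM in NK transferred lesions, the top value being NK1-1 with 756 CPM of Ltf and the next 394 CPM, against 217 to 427 CPM in KO1 lesions and to 1050 to 5640 CPM in KO2 and KO3 lesions. Ms4a2 and Fcer1a, both sparse, had a rho of 0.857 and an r of 0.895 with each other. Mcpt4 and Tpsb2, each present in the same 2 lesions only, had a rho of 1.0 and an r of 0.989, and Cma1 and Cpa3 had a rho of 0.566, with ties at 0, and an r of 0.953. Kit and Hdc were opposed, with a rho of -0.542 and an r of -0.587.

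Among genes outside the list that passed the filter, those most like the mean of the 5 proteases were 2610027K06Rik, with a rho of 0.876 and an r of 0.852, and Kera, with 0.870 and 0.842. Next came Erf, Stc2, Sybu, Lrp11, St6galnac6, Gm4907, Gna15 and Tnfaip6, down to a rho of 0.755. The filter limits this ranking: of the 5 proteases only Cma1 passed it. Genes such as Mrgprb2 and Rgs13, with counts in mouse NK1 alone, did not pass and were not ranked. Kera had 2 counts in NK1-1, 21 in NK1-2 and 9 in NK2-4, and 2 in all Ctrl lesions together. Since 10 of the 18 lesions had no protease count, these ranks rest on the 8 that had one, and Erf, with 524 counts in NK2-4 against 37 in NK1-1 and 21 in NK1-2, shows an r of 0.403 beside a rho of 0.823.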

How the data were processed

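The members and all gene lists were chosen with earlier results of these data known. Per the submitters' processing notes, the authors used bcl2fastq 2.17, STAR, RSEM 1.2.28 and DESeq2 with build mm10, and deposited RSEM's estimated counts per gene. A second deposited table holds normalized values on a log2-like scale for which no transformation was stated; how strand was treated was likewise not given in the sources used here. Identifiers were matched without version numbers to GENCODE symbols, 49326 of 49585. Estimated counts were rounded.

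Counts were summed per mouse, since lesions of a mouse share a host, and NK transferred mice (2) were compared with Ctrl mice (3) using edgeR 4.0.16 in R 4.3.3 (TMM, robust quasi-likelihood test, filterByExpr with a minimum count of 10 and total of 15, Benjamini-Hochberg adjustment over 16917 genes, threshold 0.05). The common biological coefficient of variation was 64.9%. Standard errors are the fold change over the root of F. Lesion values are CPM on TMM-scaled library sizes. Intervals are exact at 95%.

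Alternatives were RLE or upper quartile scaling, DESeq2 1.42.0, no filter, a filter of 10 counts in 9 lesions, mitochondrially encoded genes left out, equal lesion weights, lesions with a mouse random effect (correlation 0.214), mouse number as a replicate block, the normalized table with limma 3.58.1, and each mouse or lesion left out. Leaving out NK1-1 with NK1-2, or the lesions over 40% mt-Rnr2, was added after seeing the data. Named were all members, the 4 genes with the highest mean CPM of each mast cell, mediator and signalling list, the 2 highest of each other cell type list, and the 10 genes most like the proteases.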

Additional observations from a re-analysis of the deposited data

Results flagged for a closer look

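Within the 7 NK transferred lesions, each of the 10 genes was examined for a lesion whose gap to its nearest neighbour exceeded 0.568 of the group's range, and 6 of the 10 had one. NK1-2 stood apart for Cma1 at 66.9 CPM, for Cpa3 at 44.7 CPM and for Tpsb2 at 15.5 CPM. NK1-1 stood apart for Tpsab1 at 3.51 CPM and for Ms4a2 at 1.12 CPM, the second from 7 counts. NK1-3, which had no protease count, stood apart for Hdc at 133 CPM. On raw library totals the gaps of Cma1, Tpsb2 and Hdc fell under that limit, at 0.525, 0.53 and 0.555 of the range, and 4 genes were past it, Cpa3, Tpsab1, Ms4a2 and Fcer1a. Chance gives about 1 such lesion in 20 groups when values are independent, whereas these lesions share hosts, the genes share the same few lesions, and many values are at 0. The genes were also chosen on the NK-against-Ctrl expression of these same lesions, a choice that can itself favour such gaps, so the flags are a description. The 11 Ctrl lesions were too many for this rule.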

How the results depend on the processing

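The count of genes called, 0 as reported, was 224 without a filter on low counts, 39 with DESeq2 and 7 with mouse number as a replicate block, and 0 to 4 when a mouse or a lesion was left out. The block called 6 higher and 1 lower, Cma1 among the members. Same-numbered mice deviated with correlations of 0.0957 and 0.289 over 2 pairs, against -0.289 to 0.198 in the other pairings. Deviations were taken from the group mean, so those of NK1 and NK2 are mirror images. The other pairings are therefore no independent comparison. The 2 same-numbered pairs are too few to pair the mice, whose numbers are only names. The members' median log2 fold change of -0.30 was 5.02 without a filter and 5.06 with DESeq2, where all 10 were tested (3.01 and 3.12 with genes at 0 in Ctrl at their bound), 0.22 in the normalized table, and -0.56 to 8.47 with a mouse or lesion left out. For the other mast cell genes the median of 0.63 was 3.62 without a filter and 3.85 with DESeq2 (1.48 in both at the bounds), -0.064 without NK1-1 and NK1-2, and 0.30 to 1.26 with a mouse or lesion left out. Kit turned to 0.32 without the lesions over 40% mt-Rnr2, a setting that leaves out all of mouse NK1. Kit ranged from -1.34 to 0.45 with a mouse or lesion left out. Hdc turned to 0.76 without NK1-1 and NK1-2, and Gata2 ranged from -0.84 to 0.075. On raw totals and on totals without mitochondrially encoded genes, the protease sum was 33.6 and 65.5 CPM in NK1-1, 72.6 and 212 CPM in NK1-2, and 2.46 and 2.97 CPM in NK2-4. Gata2 in NK1-2 and Hdc in NK1-3, the highest lesions as reported, were not the highest on raw totals. With 1 lesion left out, the rho with the marker list ranged from 0.495 to 0.701 for Kit and from 0.201 to 0.493 for Gata2. For Hdc it ranged from 0.449 to 0.777. The jackknife standard errors, 0.208, 0.275 and 0.273, were computed from these same steps, so they cannot show whether the steps are small. The medians of the granule matrix and signalling lists moved by less than the SD between mice.

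With 2 mice against 3, 1 mouse decides most values of the NK transferred group. Neither mouse age nor genetic background was given, and each lesion is 1 library from a captured outline. The IgE receptor genes had at most 7 counts in any lesion, and in NK1-3 a protease count of 0 allows up to 2.96 CPM.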
